A study of Rattus norvegicus with 64 samples.

Results

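Of 28420 transcripts quantified in rat liver and kidney, 71 (0.25%) were higher in acetaminophen-treated than in vehicle-treated livers at both 5 h and 10 h after dosing and did not show a rise of that size in kidney at 5 h. They were chosen by their measured values in CPM, a library's estimated count for a transcript divided by the library's total, times 1000000. A transcript was kept when the ratio of the acetaminophen median to the vehicle median, with 0.5 CPM added to each, was at least 1.5 in liver at 5 h and at 10 h and under 1.5 in kidney at 5 h. In addition the same ratio between vehicle livers at 10 h and 5 h had to lie above 0.57 and below an upper limit (the highest value kept was 1.718 and the lowest left out by it 1.788), the acetaminophen median had to reach 1 CPM at both times, and at least 7 of the 8 acetaminophen livers had to exceed the vehicle median at each time. These liver comparisons and the kidney comparison at 5 h chose the transcripts, so their values are given as a description. Kidney at 10 h took no part in the choice, and the acetaminophen effect there was tested.

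The study gave 32 Sprague Dawley rats, an outbred laboratory strain, 2 g/kg acetaminophen at once or only the vehicle, 6 ml/kg of 50% polyethylene glycol, and sequenced liver and kidney RNA. The route is not given in the sources used here. Vehicle and acetaminophen rats were sampled at 5 h and at 10 h, with 8 rats in each of the 4 combinations, which gave 8 groups of 8 libraries over both tissues. Sex and age are not given in the sources used here. With 64 libraries from 32 rats, liver and kidney at a given time came from the same animals, but libraries of an animal cannot be matched by the labels. The labelled extraction text speaks of cultured cells, although the tissue labels are liver and kidney.

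Acetaminophen is cleared by the liver mainly through conjugation with glucuronic acid and sulfate. In overdose more of it is oxidised by cytochrome enzymes to a reactive quinone imine, which consumes glutathione and binds to cell proteins, and hepatocytes near the central veins die. Liver cells exposed to such a product are known to raise transcripts of antioxidant defence, protein folding and damage repair, and the kidney also oxidises part of the drug. None of these functions can be assigned here: the files give transcript identifiers without gene names, and 0 of the 28420 identifiers occur in the reference table, so the transcripts are described by their length in bases, their levels and their tissue distribution. The labelled tissues could not be checked against marker genes for the same reason.

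The libraries held 21467448 to 29496773 estimated counts in liver and 18039111 to 26148119 in kidney. The liver libraries numbered 28, 29, 30 and 32 stood apart in how level depended on transcript length: the slope of a library's log2 deviation from the liver mean on log2 length was -0.236 to -0.116 in these and -0.048 to 0.078 in the other 28 liver libraries. They are 10 h acetaminophen replicate 8, 5 h acetaminophen replicate 6, 5 h vehicle replicate 6 and 5 h acetaminophen replicate 7. Without them the same limits kept 95 transcripts, of which 58 were among the 71. On TPM, which also divides by transcript length, 47 transcripts met the limits, 40 of them among the 71.

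The 71 transcripts had similar median ratios in liver at both times, and the limit of 1.5 at each time bounded both from below. The ratio was 1.5 to 6.53 with a median of 1.88 at 5 h, and 1.5 to 7.24 with a median of 1.90 at 10 h. Over the 11989 transcripts that reached 1 CPM in both acetaminophen groups, the median ratios were 0.964 and 1.03, a gap that follows from the choice. Both ratios were at least 2 for 21 of the 71, at least 3 for 6 and at least 4 for 2. Many lay close to the limit: 26 had a smaller ratio within 10% of it.

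**Figure D1:**
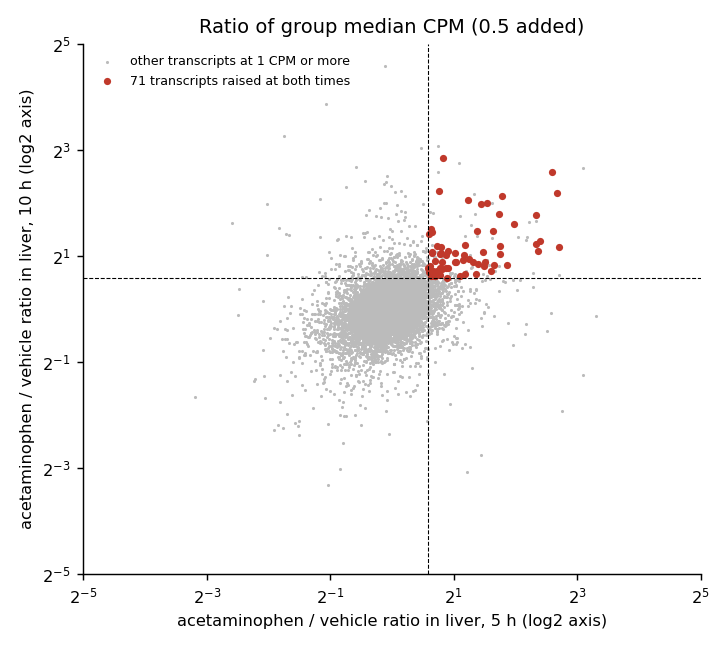
Ratio of the acetaminophen to the vehicle median CPM in liver (0.5 CPM added), at 5 h on the horizontal and at 10 h on the vertical axis, both log2 axes. Red points are the 71 transcripts, grey points the other transcripts at 1 CPM or more, and dashed lines mark 1.5; grey points beyond both lines failed another limit, and the red points reach 6.53 at 5 h and 7.24 at 10 h.

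The transcript with the largest smaller ratio was ENSRNOT00000037218, 1697 bases long, at 6.04 in 5 h and 5.98 in 10 h liver. It was scarce, with a lowest, median and highest value of 0, 0.739 and 4.33 CPM in 5 h vehicle livers and 0, 6.99 and 10.8 CPM in 5 h acetaminophen livers. At 10 h the values were 0, 0.809 and 1.73 CPM with vehicle and 0.89, 7.33 and 11.5 CPM with acetaminophen. The groups overlapped at both times: vehicle replicate 6 at 5 h lay above acetaminophen replicates 6 and 7, of which replicate 6 held no count, and at 10 h acetaminophen replicate 5 lay within the vehicle range. In kidney the transcript stayed low, with group medians of 0.764 and 0.558 CPM at 5 h and 1.57 and 0.735 CPM at 10 h in vehicle and acetaminophen animals. Its 10 h kidney change was not called, at -0.96 ± 0.82 (log2, SE; edgeR adjusted p = 0.701).

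The most abundant of the 71 in acetaminophen livers was ENSRNOT00000015336, 1864 bases long. The 5 h vehicle livers held 811 to 3916 CPM with a median of 2255, and the 5 h acetaminophen livers 4646 to 9236 CPM with a median of 7456. At 10 h the range was 1097 to 2591 CPM with a median of 1584 in vehicle and 2722 to 6904 CPM with a median of 5501 in acetaminophen livers. Every acetaminophen liver lay above every vehicle liver at both times. On the length-scaled TPM values its median stood at 1167 with vehicle and 3683 with acetaminophen at 5 h, rank 93 and rank 43 among all transcripts, and at 763 and 2841 at 10 h, rank 130 and rank 52. It was liver-enriched: kidney medians were 53.9 to 67.5 CPM, and the kidney log2 change at 10 h, 0.07 ± 0.29 (SE), was not called (edgeR adjusted p = 0.965).

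A transcript of 1963 bases combined a high level with one of the largest ratios. It went from 97.7, 164 and 430 CPM (lowest, median, highest) in 5 h vehicle livers to 494, 1052 and 1713 CPM in 5 h acetaminophen livers. At 10 h the values were 94, 167 and 295 CPM with vehicle and 314, 765 and 1464 CPM with acetaminophen. The groups did not overlap at either time. In kidney at 10 h it was at 153 to 207 CPM with vehicle and 200 to 335 CPM with acetaminophen. That change, 0.64 ± 0.18 (log2, SE), missed the threshold (edgeR adjusted p = 0.0729). In kidney at 5 h, which took part in the choice, its medians were 171 CPM with vehicle and 232 CPM with acetaminophen. There it was called as higher, at 0.88 ± 0.18 (log2, SE; edgeR adjusted p = 0.00451).

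The libraries of a group differed in how high the 71 transcripts stood. Taking in each library the median over the 71 of the ratio to the vehicle group's median, the 5 h acetaminophen livers ran from 1.53 in replicate 6 to 2.57 in replicate 1 (median 1.91). The 10 h acetaminophen livers ran from 1.63 in replicate 5 to 2.41 in replicate 7 (median 1.90), and the vehicle livers from 0.871 to 1.11. Replicate 6 at 5 h was the lowest of its group for 28 of the 71 transcripts, and 7 of the 71 were not above the vehicle median in it. At 10 h replicates 5 and 8 were lowest for 18 and 17 transcripts, and 10 of the 71 were not above the vehicle median in replicate 8. Replicate 7 at 10 h reached a ratio of 1.5 for 69 of the 71, against 40 in replicate 5.

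All 8 acetaminophen livers exceeded the vehicle median for 56 of the 71 at 5 h, for 49 at 10 h and for 41 at both times. Acetaminophen and vehicle livers did not overlap for 15 of the 71 at 5 h, where 0.502% of all transcripts tested had every acetaminophen above every vehicle library, and for 29 at 10 h, against 2.28%. The separation held at both times for 8 transcripts, and 35 were separate at neither time. The count at 5 h changed with the libraries left out. At that time 7 transcripts overlapped only through vehicle replicate 6 (library 30). Without it 22 were separate at 5 h (0.663% of all tested) and 12 at both times. Without acetaminophen replicate 6 (library 29) the 5 h count was also 22 (0.756%). It was 17 (0.582%) without library 32 and 19 (0.616%) without library 67, which did not stand apart by length. Why the count was lower at 5 h was not tested. Without libraries 28, 29, 30 and 32 the count was 36 at each time, where 1.68% and 2.99% of all tested were separate, and 21 at both. With fewer libraries, groups overlap less often. Since the limits used these libraries, nothing follows from the excess over the background. Among vehicle livers at 5 h, replicate 6 stood apart with 22 of the 71 at 1.5 times the vehicle median or more, against 1 to 13 in the others. The median SD of log2 CPM within a liver group was 0.42 and 0.51 for the 71 in vehicle and acetaminophen animals at 5 h and 0.34 and 0.44 at 10 h, against 0.34, 0.30, 0.21 and 0.31 for all transcripts at 1 CPM or more.

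**Figure D2:**
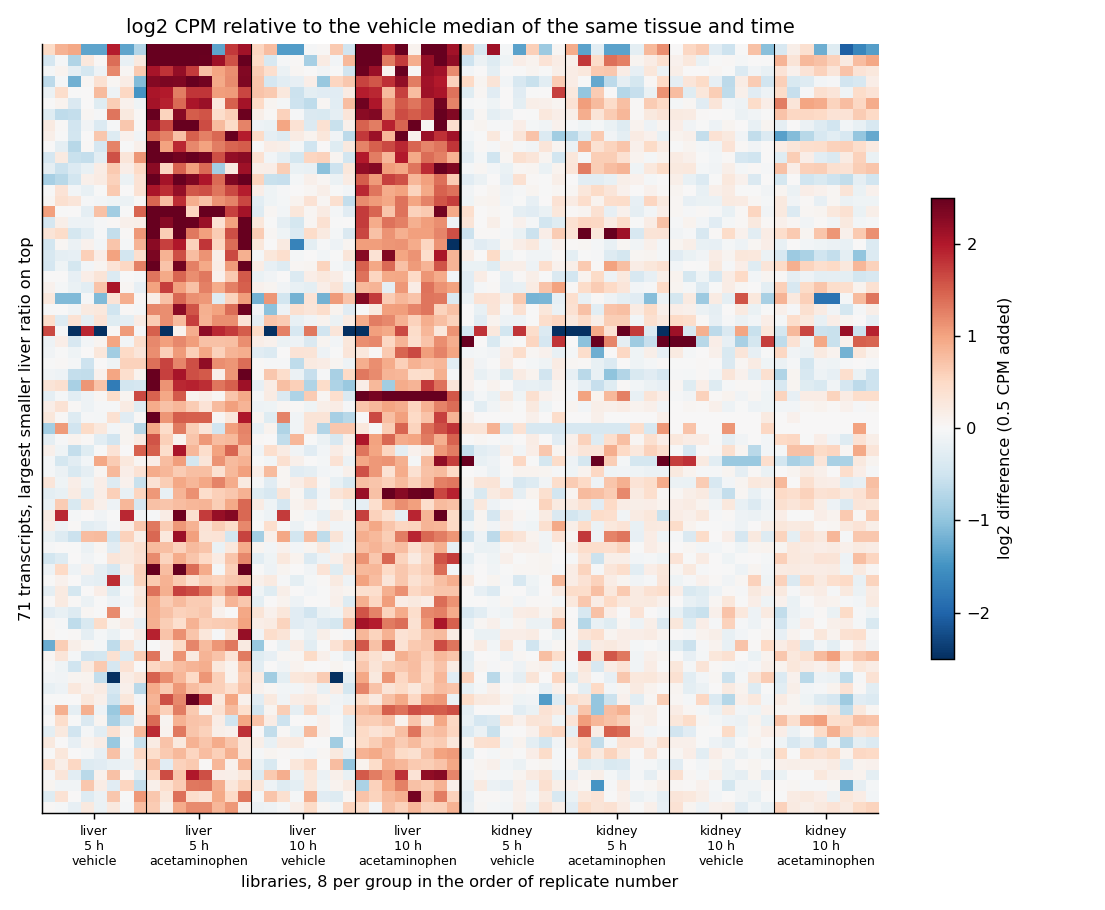
Rows are the 71 transcripts, with the largest smaller liver ratio on top, and columns are the 64 libraries; colour gives log2 CPM (0.5 added) minus that of the vehicle median of the same tissue and time, with colours saturated at 2.5. The acetaminophen livers are red at both times with paler columns such as 5 h replicate 6, and the kidney columns are mostly near 0, with scattered red rows in the acetaminophen animals.

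As a share of all estimated counts, the 71 transcripts together took 1.12% ± 0.301 (SD, n = 8) with vehicle and 2.28% ± 0.391 (SD, n = 8) with the drug in liver at 5 h. At 10 h they took 1.01% ± 0.126 and 2.19% ± 0.487 in the same order. Without ENSRNOT00000015336 the shares were 0.881% and 1.58% at 5 h and 0.832% and 1.68% at 10 h. At 5 h vehicle replicate 6, with 1.81%, lay above acetaminophen replicates 6 and 7, which held 1.71% and 1.73%; at 10 h the lowest acetaminophen library, at 1.42%, lay above the highest vehicle library, at 1.18%. In bulk tissue, a change in the number of cells that hold a transcript and a change in its level per cell cannot be told apart.

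In the edgeR fit over all transcripts, 57 of the 71 were called as higher at 5 h, where 7.37% of the 14943 transcripts tested were, and 55 at 10 h, where 9.74% were. The call was made at both times for 46 of them, against 2.23% of all tested, and at neither time for 5. The median log2 change was 1.21 at 5 h and 1.06 at 10 h. These are the comparisons the limits used, and the counts show only how far limits on medians and a test on all libraries pick out the same transcripts. Without the liver libraries numbered 28, 29, 30 and 32 the counts were 60 and 61, and the share of all transcripts called in that fit is not given here.

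The course over time differed within the group. The 5 h ratio was the larger for 42 transcripts and the 10 h ratio for 29, and the ratios differed by less than 1.5 times for 54. In 11 the 5 h ratio was at least 1.5 times that at 10 h. A transcript of 1953 bases showed this at a high level, with 118, 158 and 175 CPM (lowest, median, highest) in vehicle and 203, 816 and 1315 CPM in acetaminophen livers at 5 h, and 147, 200 and 263 against 184, 430 and 678 CPM at 10 h. Its groups were separate at 5 h and overlapped at 10 h. A transcript of 1985 bases had the largest 5 h ratio, 6.53, with medians of 1.78 and 14.4 CPM, and a ratio of 2.25 at 10 h, with medians of 1.37 and 3.71 CPM.

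In 6 transcripts the 10 h ratio was at least 1.5 times that at 5 h. The largest 10 h ratio, 7.24, belonged to a transcript of 1941 bases, which went from 0.487, 1.19 and 2.12 CPM (lowest, median, highest) with vehicle to 4.45, 11.7 and 44.5 CPM with acetaminophen. At 5 h it was at medians of 0.483 and 1.24 CPM, and the groups overlapped. A transcript of 2218 bases went from medians of 2.87 to 5.22 CPM at 5 h and from 3.01 to 15.9 CPM at 10 h, with separate groups at the later time only. The differences between the times were not tested, since both effects were used to choose the transcripts.

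In vehicle animals the levels of the 71 transcripts varied by several orders of magnitude. Their vehicle liver level had a median of 13.5 CPM and ran from 0.248 to 2265 CPM, and 62 were at 1 CPM or more, 38 at 10 or more and 12 at 100 or more. In vehicle kidney they ran from 0 to 2664 CPM with a median of 34.2 CPM. The kidney level exceeded the liver level for 54 of the 71 (76.1%), as it did for 81.9% of the transcripts at 1 CPM or more. Lengths ran from 375 to 9639 bases with a median of 1941, close to the 2047 of the transcripts at 1 CPM or more.

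Tissue ratios were taken between vehicle medians with 0.5 CPM added to each. At one end stood 4 transcripts with at least 16 times the kidney level in liver (5.63%, against 2.97% of those at 1 CPM or more). Besides ENSRNOT00000015336 they include one of 2336 bases, which went from 1529, 2028 and 4043 CPM (lowest, median, highest) with vehicle to 3374, 4152 and 4680 CPM with acetaminophen at 5 h. At 10 h it went from 1908, 2459 and 2977 to 3270, 4528 and 5687 CPM. The groups were separate at 10 h and overlapped at 5 h only through vehicle replicate 6 (library 30), since the other vehicle livers reached at most 2749 CPM. Its kidney medians were 0.669 to 1.22 CPM, but single kidney libraries were far higher. Among 5 h kidneys, acetaminophen replicates 8 and 3 held 66.7 and 14.8 CPM and vehicle replicate 1 held 10.5 CPM. The part of liver RNA in these values was not tested. Another, of 777 bases, had medians of 538 and 921 CPM at 5 h and 599 and 1228 CPM at 10 h, with overlapping groups at both times. The fourth, of 1352 bases, had medians of 14.1 and 24.9 CPM at 5 h, and at 10 h it ran from 9.13 to 25.1 CPM with vehicle and from 15.5 to 55.6 CPM with acetaminophen. These 4 had median ratios of 1.89 at 5 h and 2.06 at 10 h, where all transcripts of this class at 1 CPM or more had 0.911 and 0.881. The limits chose the 4 by these ratios, so the gap follows from the choice.

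At the other end, 12 transcripts (16.9%) had at least 16 times the liver level in kidney, a class that holds 241 (2.01%) of the transcripts at 1 CPM or more. The limit of 1 CPM was set on acetaminophen medians. A transcript scarcer than that in vehicle liver, where these 12 reach down to 0.248 CPM, could enter only through its treated livers. Nothing follows from the larger share, which was not tested. The 12 had median ratios in liver of 2.56 at 5 h and 1.93 at 10 h, where the class had 1.08 and 1.06, a gap that again follows from the choice. The most abundant, of 2528 bases, had 2586 CPM in 5 h vehicle kidney at the median, and in liver it went from 20.2, 31.7 and 80.7 CPM (lowest, median, highest) to 43.1, 93.0 and 198 CPM at 5 h and from 17.4, 22.7 and 34.4 to 53.1, 92.1 and 151 CPM at 10 h. The liver groups were separate at 10 h and overlapped at 5 h only through vehicle replicate 6 (library 30), since the other vehicle livers reached at most 37.4 CPM.

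Others of this class were scarce in vehicle liver. A transcript of 3532 bases had a vehicle kidney median of 613 CPM at 5 h and rose in liver from 0.12, 0.442 and 2.34 CPM to 2.38, 4.48 and 5.48 CPM at 5 h, and from 0.513, 0.89 and 1.58 to 1.96, 2.87 and 5.02 CPM at 10 h, without overlap at either time. A transcript of 1065 bases, at 296 CPM in 5 h vehicle kidney, had liver medians of 0.248 and 1.83 CPM at 5 h and 0.236 and 1.53 CPM at 10 h, with overlap. The other 869 kidney-enriched transcripts held 0.166% to 0.227% of the counts of vehicle and 0.172% to 0.191% of those of acetaminophen livers at 5 h, and 0.161% to 0.202% and 0.177% to 0.345% at 10 h. The 0.345% belongs to acetaminophen replicate 5. The part of kidney RNA in these values was not tested. Without that library 72 transcripts met the limits, 67 of them among the 71.

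Between these ends, 24 transcripts differed by less than 2 times between the tissues. A further 6 were 2 to 16 times higher in liver and 25 were 2 to 16 times higher in kidney. With 0.5 CPM added, a transcript scarce in both tissues can fall among the 24, whose vehicle medians reach down to 0.3 CPM in liver and 0 CPM in kidney. A transcript of 1743 bases, at similar levels in both tissues, went from 110, 125 and 197 CPM (lowest, median, highest) to 319, 425 and 574 CPM in liver at 5 h and from 132, 143 and 160 to 209, 325 and 529 CPM at 10 h. Its groups were separate at both times, and its kidney medians were 187 to 207 CPM. A transcript of 3104 bases went from 27.7, 49.8 and 74.1 to 133, 253 and 486 CPM at 5 h and from 51.7, 77.6 and 114 to 120, 182 and 256 CPM at 10 h, also without overlap.

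**Figure D3:**
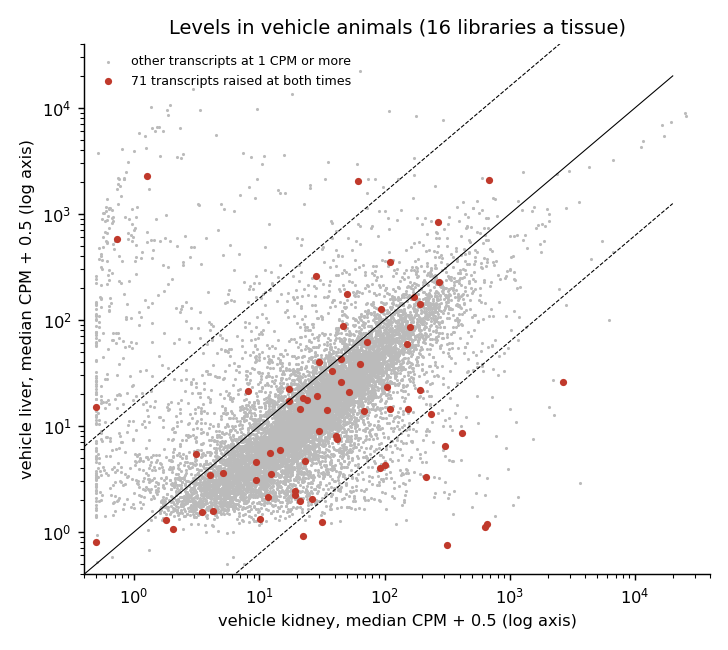
Median CPM over the 16 vehicle libraries of each tissue (0.5 added, log axes), kidney on the horizontal and liver on the vertical axis; red points are the 71 transcripts and grey points the other transcripts at 1 CPM or more. The solid line marks equal levels and the dashed lines a 16-fold difference, beyond which 4 of the red points lie on the liver side and 12 on the kidney side.

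The question in kidney at 10 h was whether transcripts chosen for a rise in liver also changed there. Of the 71, 69 passed the filter on low counts, and 8 rose and 1 fell (edgeR, adjusted p under 0.05). The share that rose was 11.6%, where 0.694% of the 17284 kidney transcripts tested rose, 0.648% fell and 1.34% changed in either direction. The 9 calls became 15 with DESeq2 (12 higher, 3 lower), 21 with limma voom (15 and 6) and 16 when only the 16 libraries compared were fitted (14 and 2). The shares of all transcripts given above belong to the main fit. Those of the other fits are not given here, so their counts cannot be set against a background. Leaving out acetaminophen replicate 7 gave 4 calls, and leaving out acetaminophen replicate 3 or 8 or vehicle replicate 6, 7 or 8 gave 5. The median log2 change of the 69 was 0.11 and 47 (68.1%) were positive, where all tested transcripts had a median of -0.002 and 49.6% were positive. The median of these transcripts was 0.065 with limma voom, 0.066 with no filter, which tests more of them, and 0.069 on TPM. The changes were small: the 8 that rose did so by 0.33 to 0.81 on the log2 scale. In simulated 10 h kidney data the fit recovered 41.8% of changes of 1.5 times. A transcript that was not called may therefore have changed by a small factor. The 10 h kidneys came from the same rats as the 10 h livers that were used in the choice, so the test is of other libraries, not of other animals.

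**Figure D4:**
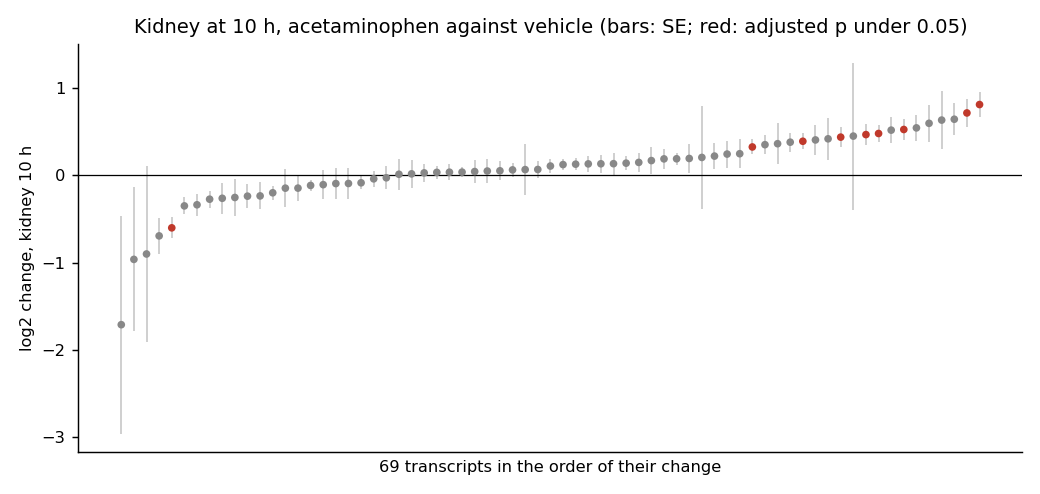
Log2 change between acetaminophen and vehicle kidneys at 10 h with its standard error for the 69 transcripts tested, in the order of the change; red marks an edgeR adjusted p under 0.05. The 8 red points above 0 lie between 0.33 and 0.81 and 1 red point lies below.

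The rise with the lowest adjusted p was that of a transcript of 2237 bases, from 2.69, 3.40 and 4.87 CPM (lowest, median, highest) to 4.29, 6.54 and 9.03 CPM. On the log2 scale this was 0.81 ± 0.14 (SE), with an edgeR adjusted p of 0.00374. The groups overlapped. In liver its medians had gone from 1.07 to 5.69 CPM at 5 h and from 1.04 to 4.18 CPM at 10 h. The kidney-enriched transcript of 2528 bases rose from 2436, 2679 and 3143 CPM to 3374, 3811 and 4403 CPM, by 0.48 ± 0.10 (SE; edgeR adjusted p = 0.0117), and was the only 1 of the 8 whose groups did not overlap. In all, 2 of the 71 were separate upwards in kidney at 10 h, where 0.197% of those tested were; the other, of 2218 bases, missed the threshold at 0.52 ± 0.15 (log2, SE; edgeR adjusted p = 0.0741).

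The remaining 6 that rose were of 2062, 5157, 1196, 815, 1875 and 1462 bases. The transcript of 2062 bases went from a median of 2.90 to 5.15 CPM (log2 change 0.72 ± 0.16 SE, edgeR adjusted p = 0.018), and that of 5157 bases from 158 to 228 CPM (0.53 ± 0.12 SE, edgeR adjusted p = 0.0239). The other 4 changed by 0.39, 0.47, 0.44 and 0.33 in the order given, with edgeR adjusted p from 0.0291 to 0.0499. All 16 fits that left out a 10 h kidney library, and all 8 other settings, kept the calls of the transcripts of 2237, 2528 and 2062 bases. The call of the 5157-base transcript was lost in 2 of the 16. The 1196-base, 815-base, 1875-base and 1462-base transcripts kept theirs in 7, 4, 2 and 3 of those 16 fits, and in 7, 6, 6 and 3 of the 8 other settings.

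The fall was that of ENSRNOT00000019004, 2428 bases long and 46.7 times higher in vehicle kidney than in vehicle liver (0.5 CPM added to each median). In 10 h kidney it went from 252, 306 and 373 CPM (lowest, median, highest) with vehicle to 153, 209 and 259 CPM with acetaminophen. The edgeR estimate was -0.60 ± 0.12 (log2, SE; adjusted p = 0.00864). The groups met only at their edges, with the highest acetaminophen library above the lowest vehicle library. At 5 h the kidney medians were 301 and 294 CPM (log2 change -0.16 ± 0.12 SE, edgeR adjusted p = 0.488). In liver the transcript went from medians of 3.49 to 7.55 CPM at 5 h and from 6.24 to 13.5 CPM at 10 h, with overlap at both times. The call in kidney held in all 8 other settings and in all 16 fits that left out a library.

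Kidney at 5 h was limited by the choice to ratios under 1.5, and the 71 had ratios from 0.756 to 1.49 with a median of 1.08. By edgeR, 14 of the 69 tested were called as higher and 0 as lower, where 2.79% and 2.29% of all tested were. In either direction 5.07% of all tested were called. These libraries took part in the choice, so the counts here are a description. At an unadjusted p under 0.05, 30 were higher and 2 lower, where 19.6% of all tested passed. DESeq2 called 21 higher and 0 lower, and edgeR on only the 16 libraries compared called 4. The share of all transcripts called in these 2 fits is not given here. Of the 8 that rose at 10 h, 5 were among the 14. The 5 h acetaminophen kidneys were uneven: 16, 14, 20 and 21 of the 71 were at 1.5 times the vehicle median or more in replicates 2, 3, 4 and 5, and 2, 1, 2 and 8 in replicates 1, 6, 7 and 8. At 10 h the number was 4 to 13 in the acetaminophen and 1 to 4 in the vehicle kidneys. As a share of all kidney counts the 71 held 0.917% to 1.05% in vehicle and 1.07% to 1.21% in acetaminophen animals at 10 h, ranges that do not overlap. Without the transcript of 2528 bases the shares were 0.664% to 0.768% and 0.722% to 0.792%, which do overlap.

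Between vehicle kidneys at 10 h and 5 h, edgeR called 0 of the 69 transcripts, where 0.0405% of all tested were called; 4 had an unadjusted p under 0.05, as did 5.8% of all, and DESeq2, limma voom and limma on TPM called 0 as well.

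Transcripts just outside the limits were looked at in kidney at 10 h for comparison, with no test of the lists. Of 14 that failed only the kidney limit at 5 h, 2 (14.3%) rose at 10 h and the median log2 change was 0.22. Of 81 that failed only the liver limit at 5 h, 1 (1.23%) rose, with a median of 0.07. Of 61 that failed only the liver limit at 10 h, 3 (4.92%) rose, with a median of 0.04. Among all transcripts tested, 0.694% rose and 0.648% fell. None of these 3 lists held a fall by edgeR, and at that share lists of this size would hold few. The values at the limits themselves were 1.505 inside and 1.491 outside for liver at 5 h, 1.504 and 1.494 for liver at 10 h, 1.486 and 1.533 for kidney at 5 h, 0.597 and 0.57 for the lower limit between vehicle livers, and 1.022 and 0.966 CPM for the level.

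In 4 of the 71, of 4809, 1697, 4140 and 1213 bases, a liver group with a median of at least 1 CPM held a library under 0.05 CPM. The transcript of 1213 bases spanned 8.42e-06 to 11.7 CPM in 5 h vehicle and 1.09e-05 to 14.9 CPM in 5 h acetaminophen livers. The cause was not tested.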

How the data were processed

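The authors deposited a table for each library, with estimated counts and TPM for every transcript. Kallisto 0.42.4 and genome build Rnor 6.0 are named in the submitters' processing notes. The deposited estimated counts are unscaled, and the deposited TPM take account of length and depth; 26.6% of the estimated counts are not whole (tolerance 1e-06). Libraries were stranded and poly-A enriched, per the labels' protocols. Kallisto shares reads among related transcripts by a model, whose error is not included here.

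Groups came from the tissue, agent and time labels, with replicates numbered in accession order. The 71 transcripts and all lists were chosen with earlier results of these data known. Rounded estimated counts went into edgeR 4.0.16 under R 4.3.3 (filterByExpr, TMM, glmQLFit, glmQLFTest, two-sided), with 32 libraries of a tissue fitted together in 4 groups. P-values were adjusted by Benjamini-Hochberg over every transcript in the fit, with calls under 0.05. Each standard error is the log2 change over the root of its F statistic. Alternatives were DESeq2 1.42.0, its size factors, limma 3.58.1 (voom with quality weights, and log2(TPM + 1)), no filter, the 16 libraries compared alone, and fits without certain libraries. The edgeR fit was tested on simulated 10 h kidney data. It recovered 41.8% of the changes of 1.5 times, 76.1% of those of 2 times and 92.4% of those of 4 times. Of its 152 calls, 12 were false. Changes smaller than 1.5 times were not simulated.

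Identifiers were printed by rule: the transcript with the largest smaller liver ratio, that with the highest CPM in acetaminophen livers, and falls in 10 h kidney. The others described by length were chosen after their values were seen. Gene lists and marker lists need gene names and were not run. No sequence is printed, since no table pairs the identifiers with sequences.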

Additional observations from a re-analysis of the deposited data

Results flagged for a closer look

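Checks for a library far from the rest of its group of 8 were made 48 times, and chance gives about 1 in 20 for normally distributed values. Whether the values had that form was not checked. The checks share transcripts and libraries, so they are not independent. In 5 h vehicle livers, replicate 6 held 4.33 CPM of ENSRNOT00000037218 against at most 1.92 in the others, and 1.81% of its counts in the 71 transcripts against at most 1.25%. In 5 h vehicle kidneys, replicate 3 held 4.98 CPM of ENSRNOT00000037218 against at most 1.53 and 421 CPM of ENSRNOT00000019004 against at most 344, and replicate 8 held 205 CPM of ENSRNOT00000015336 against at most 64.7. Kidney-enriched transcripts other than the 71 made up 0.227% of 5 h vehicle liver replicate 8, against at most 0.194% in its group, and 0.345% of 10 h acetaminophen liver replicate 5, against at most 0.227%. In 10 h vehicle kidneys the median ratio of the 71 to the vehicle median was 1.04 in replicate 1 and at most 1.01 in the others.

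In 4 transcripts all 8 acetaminophen livers were above and all 8 acetaminophen kidneys below the vehicle median of the same time; this difference between the tissues was not tested. At 10 h they were ENSRNOT00000019004 (edgeR log2 change 1.48 in liver and -0.601 in kidney), a transcript of 1729 bases (1.93 and -0.693; edgeR adjusted p = 0.0879 in kidney) and another of 2796 bases (0.796 and -0.337). At 5 h it was a transcript of 2481 bases (1.81 and -0.411).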

How the results depend on the processing

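The number of transcripts that met the limits was 62 to 95 under 6 of the 7 other settings, with 49 to 67 of the 71 kept. On TPM, with the same numbers as limits, it was 47. In liver the count of the 71 called stayed within 1.5 times at both times under every setting run. In 10 h kidney the 9 calls became 15 by DESeq2 (12 higher, 3 lower), 21 by limma voom (15 and 6) and 16 on the 16 libraries alone (14 and 2). They were 4 to 10 with any 1 of the 16 libraries left out. In 5 h kidney the 14 calls became 21 by DESeq2, 20 without libraries 44 and 56, and 4 on the 16 libraries alone. The share of all transcripts called is given for the main fit only, so the counts of the other fits have no background beside them. The median kidney change at 10 h, 0.108, stayed positive (0.065 by voom, 0.066 with no filter and 0.069 on TPM, to 0.127 with a library left out). That of ENSRNOT00000015336, never called, was -0.013 without vehicle replicate 5 and between that and 0.177 in the fits that left out a library. Of the calls in 10 h kidney, those of the 1196-base, 815-base, 1875-base and 1462-base transcripts held in 7, 6, 6 and 3 of 8 other settings. The fits without libraries 28, 29, 30 and 32 or 22, the alternatives for 5 h kidney, the counts of separate liver groups with libraries left out and the kidney share without the 2528-base transcript were added after seeing the data. Counts summed per gene were not run, as no gene names pair with the transcripts. No paired analysis was possible because libraries of an animal cannot be matched by the labels, and replicates were numbered in accession order.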
